A study of Homo sapiens with 9 samples.

Results

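The proteasome genes of PANC-1 cells, a human pancreatic carcinoma line, were compared between cells that received a miR-520f mimic and both kinds of control cells. Members were all genes whose symbol starts with PSM, a letter of A to G and a digit, on probe sets annotated with a single symbol. This gave 37 of the 14232 genes tested, each on 1 probe set. Of these, 36 encode proteasome subunits, activators, an inhibitor or assembly factors. The remaining one, PSME3IP1, encodes a protein that binds the activator PSME3 and was found by its name alone. By role, 6 members belong to the alpha ring and 7 to the constitutive beta ring of the core, and 2 are catalytic subunits of the immunoproteasome. The regulatory particle gave 3 ATPases, 3 further subunits of its base and 5 subunits of its lid. The other groups were 5 alternative activators and an inhibitor, taken as 1 group, and 5 assembly factors.

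The first group of 3 arrays held RNA of cells given 20 nM of a miR-520f mimic, the second of cells given 20 nM of a negative control mimic, and the third of cells labelled non-transfected, which received the lipid reagent (Lipofectamine RNAiMAX) without a mimic. All cells were therefore exposed to the lipid, and RNA was taken at 72 h. All arrays came from 1 cell line, and nothing in the labels tells whether replicates were grown apart, although they are named biological. The p-values therefore cover the spread seen on these arrays alone. Values are RMA log2 intensities, a scale on which a difference of 1 is a doubling and on which different probe sets cannot be ranked against each other. A gene was called where the limma adjusted p, by Benjamini-Hochberg over all genes tested, was under 0.05, and "rose" and "fell" are used only for called genes.

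Members on probe sets that carry several symbols were not used, which left out PSMB9, PSMD14, PSMG2, PSMG4, PSMC3IP and PSMB8-AS1. A further 8 genes of the family, PSMA6, PSMA8, PSMB11, PSMC1, PSMC5, PSMC6, PSMD7 and PSMD13, were not analysed here.

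The proteasome degrades proteins that carry ubiquitin chains. Its core is a barrel of stacked alpha and beta rings whose proteolytic sites lie inside, on beta subunits. The regulatory particle binds the chains, removes them, and uses its ATPases to unfold the substrate and feed it into the core. Interferon induces replacement beta subunits (PSMB8, PSMB9, PSMB10) and the activator pair PSME1 and PSME2, and these favour peptides that TAP carries into the endoplasmic reticulum for loading on class I molecules. In most cells the transcription factor NFE2L1 raises constitutive proteasome genes when proteolysis is impaired.

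Both mature arms of the transfected miRNA are shown with the seed, bases 2 to 8, in capitals, since the labels name miR-520f without an arm. The sequences are those of RefSeq (GRCh38.p14), at chr19:53682173-53682194 for the 5p arm and chr19:53682213-53682234 for the 3p arm, both on the plus strand.
hsa-miR-520f-5p: cCUCUAAAgggaagcgcuuucu
hsa-miR-520f-3p: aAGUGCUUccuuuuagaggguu
The seeds of the arms differ, and each is held by 1 mature miRNA name in the RefSeq table. Transcript sequences of the members were not used here, so seed matches in them were not examined.

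Promoters of the members were searched on both strands, 250 bases before to 50 after each start, for 3 short words taken from what is known of the family's regulation. These were the core of the interferon-stimulated response element (a pair of GAAA words with any NN between them), TGANNNNGC, and ATTGG, the CCAAT box. TGANNNNGC leaves the base after TGA free and is thus looser than the core of the antioxidant response element that NFE2L1 also binds. A match to it is not shown to be that element. RefSeq promoter entries were found for 31 of the 37 members, 38 promoters in all. The interferon element core was in 6 of the 38 member promoters (15.8%), against 3.57% of 35116 promoters of all genes. The 6 windows of 30 bases below show it in capitals (GRCh38.p14), written in the direction of transcription, so that it reads TTTC where it lies on the other strand.
PSMB8, chr6:32844032-32844061, minus strand: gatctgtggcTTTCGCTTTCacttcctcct
PSMB10, chr16:67936852-67936881, minus strand: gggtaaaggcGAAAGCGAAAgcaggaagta
PSME1, chr14:24136189-24136218, plus strand: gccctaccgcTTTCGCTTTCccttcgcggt
PSME2, chr14:24146619-24146648, minus strand: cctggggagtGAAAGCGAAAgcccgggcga
PSMB4, chr1:151399495-151399524, plus strand: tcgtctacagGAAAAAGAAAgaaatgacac
PSMA4, chr15:78540155-78540184, plus strand: atagtgaagaGAAAATGAAAggagagcgcc
The first 4 belong to the immunoproteasome catalytic subunits and the interferon-inducible activator pair, and in these the letters between the GAAA words are GC on one strand or the other. This narrower form was chosen after the windows were seen. It was in 4 of the 38 member promoters (10.5%) and in 35 of all promoters (0.1%). A match is a description of the letters and shows no binding.

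The loose word TGANNNNGC was in 24 of the 38 member promoters (63.2%), against 41.8% of all promoters. The CCAAT box was in 17 of the 38 (44.7%), against 34.6% of all. The whole windows of PSMB8 and PSME1 are printed because both genes fell in miR-520f cells. The matches to TGANNNNGC and to the interferon element core are in capitals. The base after TGA is A in the PSMB8 match and C in the PSME1 match.
PSMB8, chr6:32843998-32844297, minus strand: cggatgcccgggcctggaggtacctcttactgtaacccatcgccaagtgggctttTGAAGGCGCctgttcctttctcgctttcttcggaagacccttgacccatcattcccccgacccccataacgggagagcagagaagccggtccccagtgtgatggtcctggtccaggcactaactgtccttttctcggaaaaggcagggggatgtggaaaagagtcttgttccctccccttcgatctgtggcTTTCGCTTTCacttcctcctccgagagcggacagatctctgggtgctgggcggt
PSME1, chr14:24135944-24136243, plus strand: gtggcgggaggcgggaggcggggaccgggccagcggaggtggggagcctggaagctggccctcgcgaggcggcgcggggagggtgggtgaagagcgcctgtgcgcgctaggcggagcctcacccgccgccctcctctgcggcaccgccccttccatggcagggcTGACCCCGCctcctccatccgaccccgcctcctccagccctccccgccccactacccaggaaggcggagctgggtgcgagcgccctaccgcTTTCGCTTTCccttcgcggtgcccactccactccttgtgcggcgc
The interferon element core starts 4 bases before the annotated start in this PSMB8 promoter and 6 bases after it in the PSME1 promoter. The other PSMB8 promoter in the RefSeq table, chr6:32844630-32844929, holds no interferon element core. PSMF1, which fell as well, holds none of the 3 words in either of its promoter windows. PSMC3, which rose, holds 1 TGANNNNGC match, with A after TGA, and 1 CCAAT box. PSME4, which rose as well, holds 2 TGANNNNGC matches and 0 CCAAT boxes.

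The arrays were alike in scale, with medians of 4.22 to 4.34 and correlations between arrays of 0.973 to 0.998. Of the markers of ductal and carcinoma epithelium, 7 were measured, and KRT8 and KRT18, keratins of simple epithelium, were read at group means of 11.4 and 9.15 in miR-520f cells, 11.3 and 8.87 in negative control cells, and 11.6 and 8.74 in non-transfected cells. KRT18 was higher than in non-transfected cells by 0.41 (limma adjusted p = 0.00879). KRT7 lay near the low end, between 3.43 and 3.56 on the 9 arrays. The other 4 were called in the same direction against both controls. EPCAM, an adhesion molecule of epithelium, was higher in miR-520f cells by 1.68 against the negative control and 1.57 against non-transfected cells. KRT19 differed by -0.68 and -0.75, VIM, a mesenchymal filament protein, by -0.24 and -0.23, and ITGB4 by -0.22 and -0.58 in the same order. ITGB4 was dim, at 3.81 to 3.83 in miR-520f cells, below every array median. Its difference of negative control from non-transfected cells was -0.36 (limma adjusted p = 0.00286). The part of these marker changes in the results below was not tested. The 11 measured markers of immune, endothelial, acinar and endocrine cells lay between 2.69 and 4.09, and limma called 0 of them in any comparison, with 1 at an unadjusted p under 0.05. Array signal is relative within an array, and fewer cells of a kind and less RNA per cell cannot be told apart. Negative control replicate 1 stood apart for the members. Its root mean square deviation from its group mean was 0.496 over the members and 0.169 over all genes, against 0.0849 to 0.317 over the members on the other 8 arrays. Most of the squared deviation over the members came from PSME2, read at 2.86 on this array against a group mean of 5.58. Negative control replicate 1 held the lowest value of the 9 arrays for 15 of the 37 members, while 17.3% of all genes were lowest there. Results that rest on it are given with and without it. At the other end, miR-520f replicate 3 held the highest value of the 9 arrays for 15 of the 37 members, beside 11.4% of all genes.

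Against the negative control, 11 of the 37 members were called, 6 higher and 5 lower in miR-520f cells. That is 29.7% of the members, beside 28.1% of all genes tested (15.4% higher and 12.6% lower). Against non-transfected cells, 10 members were called, 6 higher and 4 lower, which is 27.0% beside 27.6% of all genes (14.5% higher and 13.1% lower). The shares of called members are thus near the background in both comparisons. The median log2 fold change of the members was 0.11 against the negative control and 0.14 against non-transfected cells, beside -0.03 in both comparisons for all genes. With dim probe sets filtered out, the medians of all remaining genes were 0.06 and 0.05 in the same order, and 35 of the 37 members passed that filter. The brighter genes as a whole thus leaned upward too, and -0.03 is not a background matched to the members in brightness. Both comparisons use the same miR-520f arrays, so their values stand side by side and are not independent. In the same direction against both controls, 5 members were called, which is 13.5% beside 18.0% of all genes. PSMC3 and PSME4 rose against both (9.37% of all genes), and PSMB8, PSME1 and PSMF1 fell against both (8.61% of all genes). The miR-520f arrays did not overlap the negative control arrays on 17 members, beside 39.4% of all genes, or the non-transfected arrays on 19 members, beside 41.1% of all genes. On 12 members (32.4%) the 3 miR-520f arrays did not overlap the 6 control arrays, beside 25.4% of all genes. They lay above the controls for 8 of these (13.2% of all genes) and below them for 4 (12.1% of all genes).

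**Figure D1:**
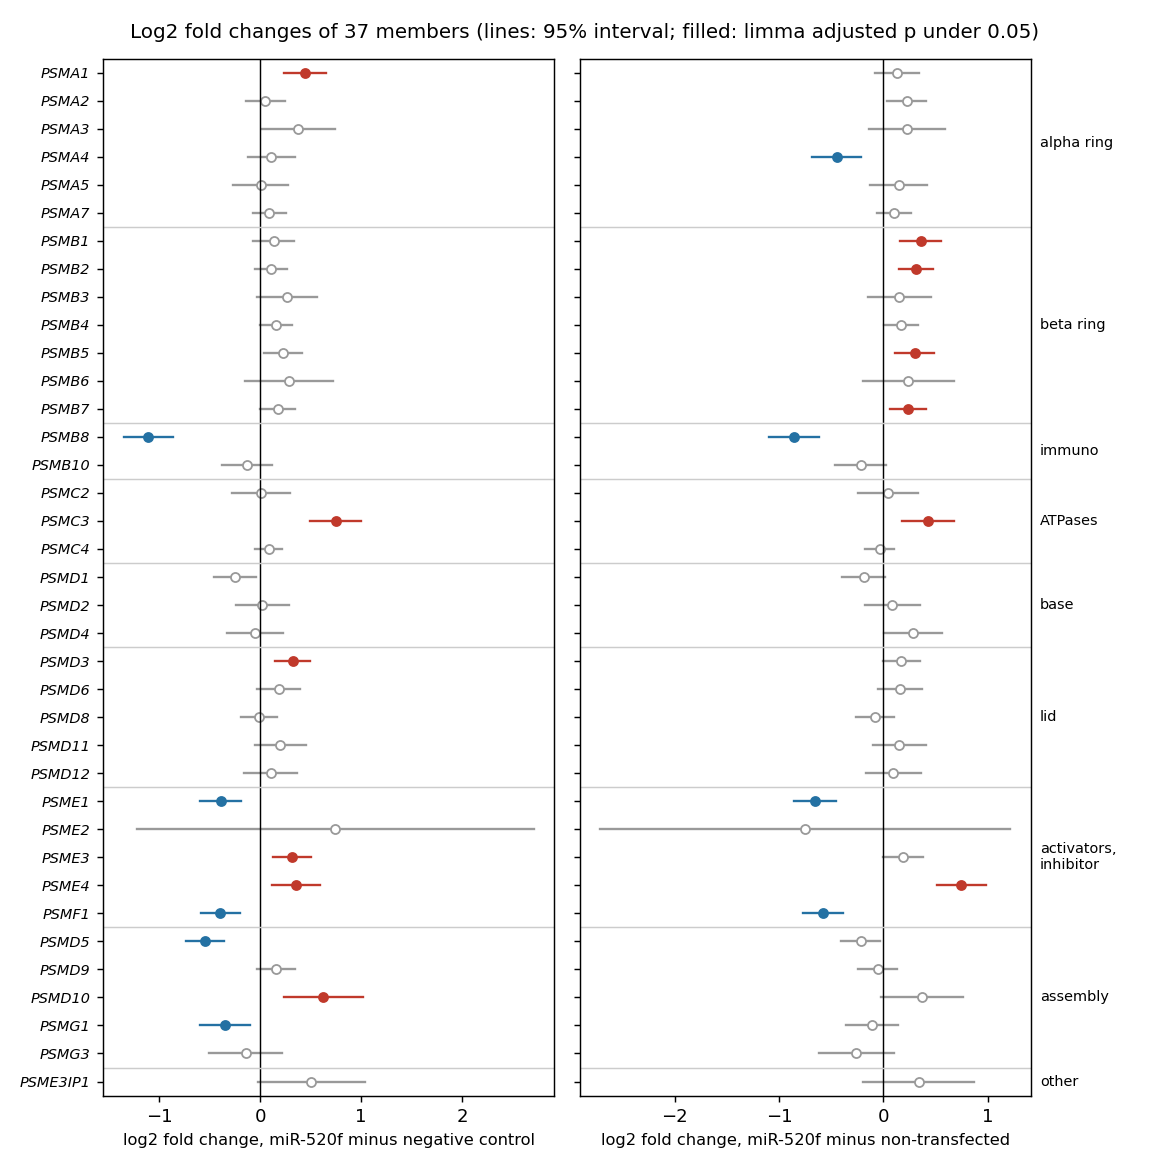
Log2 fold changes of the 37 members, by role from top to bottom, in miR-520f minus negative control cells (left) and miR-520f minus non-transfected cells (right). Points are limma estimates, lines are 95% intervals and filled points have an adjusted p under 0.05. The 7 beta ring subunits lie right of 0 in both panels, and PSMB8 lies farthest left in both.

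The immunoproteasome gave the largest fall among the members. PSMB8 encodes the chymotrypsin-like catalytic subunit that takes the place of PSMB5 in the immunoproteasome. Its log2 values were 3.48, 3.52 and 3.65 in miR-520f cells, 4.92, 4.62 and 4.43 in negative control cells and 4.43, 4.42 and 4.36 in non-transfected cells. Every miR-520f array lay below every control array, by more than any gap within the miR-520f group. The log2 fold change was -1.11 ± 0.11 (SE; limma adjusted p = 2.34e-05) against the negative control, a level 0.464 times that of the control. Against non-transfected cells it was -0.86 ± 0.11 (SE; limma adjusted p = 0.000153), a level 0.553 times that of the control. Without negative control replicate 1, the array with the highest PSMB8 value, the difference from the negative control was -0.98, with a limma adjusted p of 1.53e-05. The probe set is dim: its miR-520f values lay below the median of every array and within the range of the markers of other cell types, where RMA compresses differences, so the size of the fall is uncertain.

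PSMB10, the trypsin-like subunit that takes the place of PSMB7, was not called. Its log2 values were 4.86, 4.78 and 4.94 in miR-520f cells, 5.10, 4.73 and 5.14 in negative control cells and 4.95, 5.16 and 5.13 in non-transfected cells. The miR-520f arrays overlapped the negative control arrays and lay below the non-transfected ones. The log2 difference was -0.13 (95% interval -0.37 to 0.12; limma adjusted p = 0.482) against the negative control. Against non-transfected cells it was -0.22 (95% interval -0.47 to 0.03; limma adjusted p = 0.200). Neither interval reaches the PSMB8 estimate for the same comparison, though no difference between the genes was tested. The constitutive subunits at the corresponding places, PSMB5 and PSMB7, are described with the beta ring.

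Among the alternative activators, the interferon-inducible subunit PSME1 and the inhibitor PSMF1 fell against both controls, while PSME4 rose against both. PSME1, which forms a ring with PSME2 that opens the core without ATP, had log2 values of 8.13, 8.28 and 8.19 in miR-520f cells, 8.41, 8.63 and 8.73 in negative control cells and 8.78, 8.85 and 8.94 in non-transfected cells. The 3 miR-520f arrays were the lowest of the 9. PSME1 thus had a log2 fold change of -0.39 ± 0.09 (SE; limma adjusted p = 0.00770) against the negative control and -0.65 ± 0.09 (SE; limma adjusted p = 0.000284) against non-transfected cells. It was -0.48 against the negative control without replicate 1 of that group.

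PSME2, its partner, could not be read from these arrays with any precision. Its log2 values were 5.58, 6.64 and 6.74 in miR-520f cells, 2.86, 6.62 and 7.25 in negative control cells and 6.42, 7.14 and 7.66 in non-transfected cells. One value, 2.86 on negative control replicate 1, lay far below the other 8. The log2 difference was 0.75 ± 0.89 (SE; limma adjusted p = 0.619) against the negative control with that array and -0.61 (limma adjusted p = 0.346) without it, so its sign rests on 1 array. PSME2 has 6 named pseudogenes in the RefSeq gene table, and whether its probes also read their transcripts was not tested.

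PSMF1, a protein known as an inhibitor of the core in vitro, had log2 values of 7.85, 7.95 and 7.69 in miR-520f cells, 8.10, 8.30 and 8.28 in negative control cells and 8.47, 8.35 and 8.40 in non-transfected cells. The groups did not overlap, with miR-520f cells lowest and non-transfected cells highest. For PSMF1 the log2 fold change was -0.40 ± 0.09 (SE; limma adjusted p = 0.00526) against the negative control and -0.58 ± 0.09 (SE; limma adjusted p = 0.000487) against non-transfected cells.

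PSME4, an activator of the nucleus that acts on the core without ubiquitin, had log2 values of 8.49, 8.28 and 8.77 in miR-520f cells, 8.21, 8.16 and 8.10 in negative control cells and 7.78, 7.75 and 7.78 in non-transfected cells. The order of the groups was the reverse of that of PSMF1, again with no overlap. The log2 fold change was 0.36 ± 0.11 (SE; limma adjusted p = 0.0276) against the negative control and 0.74 ± 0.11 (SE; limma adjusted p = 0.000333) against non-transfected cells. The call against the negative control was lost under 7 alternatives, among them leaving out miR-520f replicate 3, where the difference was 0.23 (limma adjusted p = 0.0852), miR-520f replicate 1, or negative control replicates 2 or 3 (limma adjusted p = 0.0652 to 0.0725). The negative control itself was above non-transfected cells by 0.39 on the log2 scale (limma adjusted p = 0.0310). PSME3, the activator of the nucleus related to PSME1, rose against the negative control by 0.32 (limma adjusted p = 0.0162), and its difference from non-transfected cells was 0.19 (limma adjusted p = 0.147). The PSME3 call was lost without miR-520f replicates 1 or 2 (limma adjusted p = 0.0508 and 0.0706). PSME3IP1 was called in no comparison with all arrays. Without negative control replicate 1, where it read 3.93, its difference of 0.34 from non-transfected cells passed the threshold (limma adjusted p = 0.00481).

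**Figure D2:**
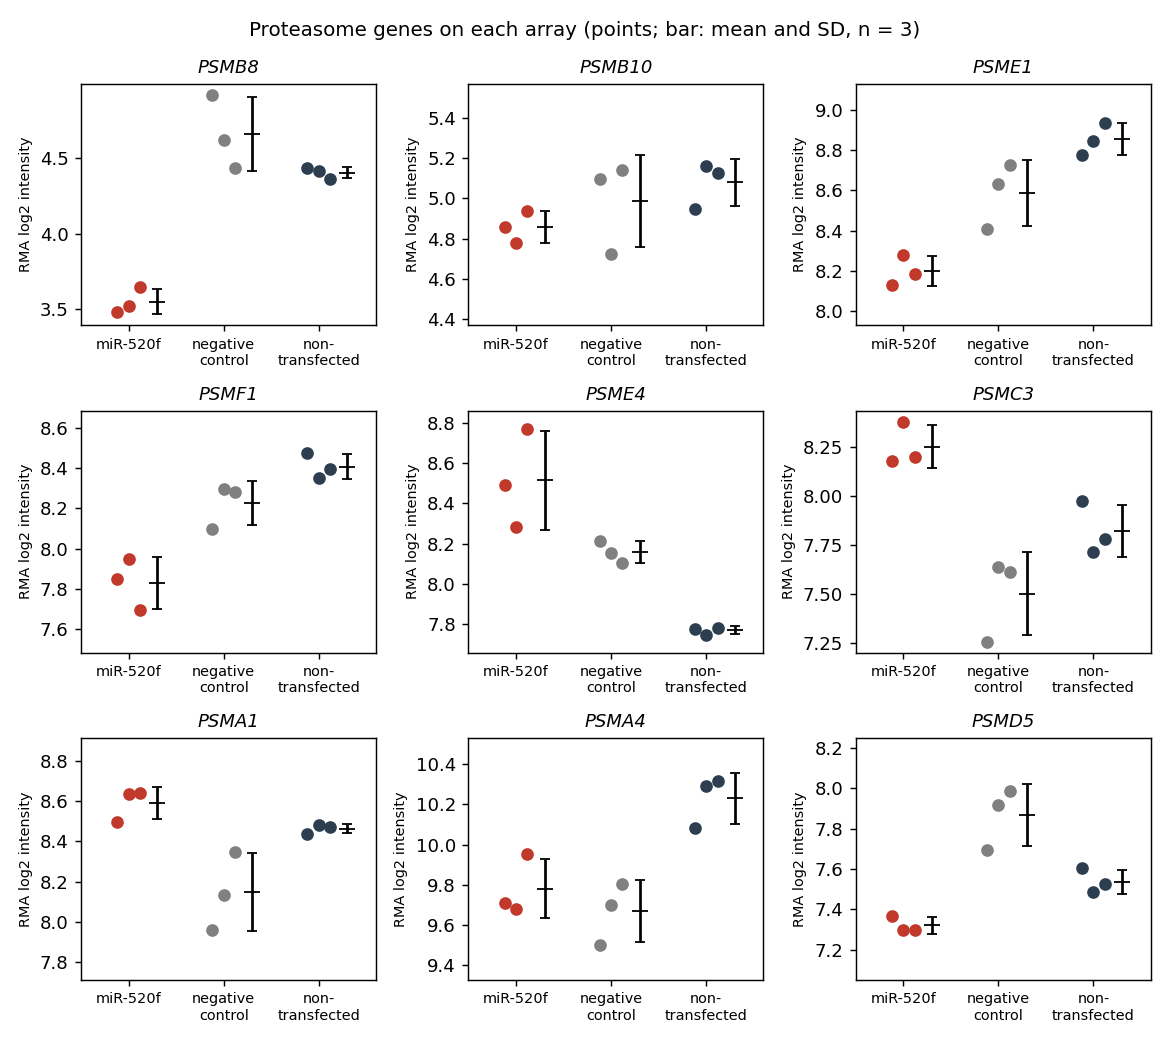
RMA log2 intensity (vertical axes) of 9 members on each array, with miR-520f cells left, negative control cells in the middle and non-transfected cells right. Points are arrays, and the bar beside each group is its mean and SD (n = 3). For PSMB8, PSME1 and PSMF1 the miR-520f points lie below all control points, and for PSME4, PSMC3 and PSMA1 above them.

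In the constitutive core, the beta ring leaned upward in miR-520f cells by small amounts. All 7 subunits had positive log2 differences against both controls, of 0.11 to 0.29 against the negative control and 0.15 to 0.35 against non-transfected cells. The medians were 0.18 and 0.24 in those comparisons, beside 0.06 and 0.05 for all genes left after dim probe sets were filtered out. All 7 stayed positive under further quantile normalization and under centring of each array on its median, and against non-transfected cells 6 of 7 were positive without miR-520f replicate 1. Against the negative control, limma called 0 of the 7, with 2 at an unadjusted p under 0.05, and the unmoderated fit called 0 as well. Further quantile normalization called 2 of them higher, PSMB5 (0.23; limma adjusted p = 0.0474) and PSMB7 (0.20; limma adjusted p = 0.0394). Against non-transfected cells 4 rose, PSMB1, PSMB2, PSMB5 and PSMB7, beside 14.5% of all genes higher. PSMB5 and PSMB7 carry the chymotrypsin-like and trypsin-like sites.

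PSMB2 had log2 values of 10.83, 10.77 and 10.89 in miR-520f cells, 10.78, 10.66 and 10.72 in negative control cells and 10.55, 10.43 and 10.58 in non-transfected cells. Its negative control values lay between the other groups and overlapped those of miR-520f cells. The log2 fold change against non-transfected cells was 0.31 ± 0.07 (SE; limma adjusted p = 0.00816), and the difference from the negative control was 0.11 (limma adjusted p = 0.350). PSMB1 gave 0.35 (limma adjusted p = 0.0124) against non-transfected cells and 0.13 (limma adjusted p = 0.346) against the negative control. For PSMB5 the miR-520f arrays, at 10.02, 10.05 and 10.21, lay above all negative control arrays (9.74, 9.91 and 9.93) and all non-transfected arrays (9.80, 9.88 and 9.69). Its log2 fold change was 0.30 against non-transfected cells (limma adjusted p = 0.0229), and its difference from the negative control was 0.23 (limma adjusted p = 0.0708). The PSMB5 call was lost without miR-520f replicate 3 and without non-transfected replicates 1 or 3 (limma adjusted p = 0.0502 to 0.0961). PSMB7 gave 0.24 (limma adjusted p = 0.0426) and 0.18 (limma adjusted p = 0.129) in the same order, and its call was lost under 11 alternatives, among them leaving out any 1 miR-520f array, negative control replicate 2 or non-transfected replicates 2 or 3 (limma adjusted p = 0.0611 to 0.157). PSMB6, with the caspase-like site, had 1 high value of 8.41, on miR-520f replicate 1, while its other 8 values lay between 7.45 and 7.87. PSMB8 thus fell against both controls, while its constitutive counterpart PSMB5 rose against non-transfected cells. Its difference from the negative control passed the threshold only with further quantile normalization.

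In the alpha ring, which gates the core, no member was called in both comparisons with miR-520f. PSMA1 had log2 values of 8.50, 8.63 and 8.64 in miR-520f cells, 7.96, 8.14 and 8.35 in negative control cells and 8.44, 8.48 and 8.47 in non-transfected cells. The miR-520f arrays were the highest of the 9, but only narrowly above the non-transfected ones. PSMA1 rose against the negative control by 0.44 ± 0.10 (SE; limma adjusted p = 0.00453) and differed from non-transfected cells by 0.13 (limma adjusted p = 0.428). PSMA4 had log2 values of 9.71, 9.68 and 9.95 in miR-520f cells, 9.50, 9.70 and 9.81 in negative control cells and 10.08, 10.29 and 10.31 in non-transfected cells. Both transfected groups overlapped and lay below non-transfected cells. PSMA4 fell by 0.45 on the log2 scale (limma adjusted p = 0.00818) in miR-520f cells against non-transfected cells, and its difference from the negative control was 0.11 (limma adjusted p = 0.520). The other alpha ring members, PSMA2, PSMA3, PSMA5 and PSMA7, were called in no comparison with all arrays. PSMA3 differed from the negative control by 0.38 (limma adjusted p = 0.120). That difference passed the threshold without replicate 3 of that group (0.58, limma adjusted p = 0.00483). Without replicate 1 of that group it was 0.16 (limma adjusted p = 0.379). Against non-transfected cells PSMA3 passed the threshold in the fit of those 2 groups (0.22, limma adjusted p = 0.0393). PSMA2 did so against non-transfected cells without miR-520f replicate 2 (0.30; limma adjusted p = 0.0251) and with arrays centred on the median (0.29; limma adjusted p = 0.0433).

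In the regulatory particle, 2 of 11 members rose against the negative control and 1 against non-transfected cells, beside 15.4% and 14.5% of all genes higher. Limma called 0 of the 11 lower in either comparison, beside 12.6% and 13.1% of all genes, and an unadjusted p under 0.05 was reached by 3 and 2 members in either direction. These counts are near the background. The medians were 0.08 and 0.09 on the log2 scale, beside 0.06 and 0.05 for all genes left after dim probe sets were filtered out. PSMC3, an ATPase of the base ring, had log2 values of 8.18, 8.38 and 8.20 in miR-520f cells, 7.26, 7.64 and 7.61 in negative control cells and 7.97, 7.72 and 7.78 in non-transfected cells. The miR-520f arrays were the highest of the 9. PSMC3 gave a log2 fold change of 0.75 ± 0.11 (SE; limma adjusted p = 0.000465) against the negative control and 0.43 ± 0.11 (SE; limma adjusted p = 0.0149) against non-transfected cells. Without negative control replicate 1, the lowest array, the difference from the negative control was 0.63 (limma adjusted p = 0.000660). The call against non-transfected cells was lost under 4 alternatives, with limma adjusted p of 0.0505 to 0.0651 without miR-520f replicate 2 or non-transfected replicates 2 or 3. PSMC3 has 1 named pseudogene, and 16 of the 37 members have at least 1, among them PSMA1, PSMB7 and PSMD10. Whether the probes of these members also read pseudogene transcripts was not tested. Its fellow ATPases moved little: PSMC2 differed by 0.01 and 0.04, and PSMC4 by 0.08 and -0.04, from the negative control and non-transfected cells, and neither was called. In the unmoderated fit PSMC4 passed against the negative control (adjusted p = 0.0435).

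Among the base subunits without ATPase activity, PSMD1, a scaffold, differed by -0.25 (limma adjusted p = 0.0743) and -0.19 (limma adjusted p = 0.191) from the negative control and non-transfected cells. Without miR-520f replicate 3 both passed the threshold, at -0.36 (limma adjusted p = 0.00834) and -0.30 (limma adjusted p = 0.0220), and further quantile normalization called PSMD1 against the negative control (-0.30; limma adjusted p = 0.0237). PSMD2, another scaffold, differed by 0.02 and 0.09. PSMD4, a ubiquitin receptor, was read between 3.06 and 3.78, below every array median, and was called in no comparison with all arrays. Without negative control replicate 1 its difference of 0.28 from non-transfected cells passed the threshold (limma adjusted p = 0.0106). In the lid, PSMD3 rose against the negative control by 0.32 ± 0.08 (SE; limma adjusted p = 0.0108). Its difference from non-transfected cells was 0.17 (limma adjusted p = 0.159). PSMD6, PSMD8, PSMD11 and PSMD12 were called in no comparison, with differences between -0.08 and 0.20 from either control.

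Of the 5 assembly factors, 1 was called higher and 2 lower against the negative control, beside 15.4% and 12.6% of all genes, and 0 against non-transfected cells, with 1 at an unadjusted p under 0.05. PSMD5, a chaperone of the base that dissociates before the particle is complete, had log2 values of 7.37, 7.30 and 7.30 in miR-520f cells, 7.70, 7.92 and 7.99 in negative control cells and 7.60, 7.49 and 7.52 in non-transfected cells. Here the negative control arrays were the highest and the miR-520f arrays the lowest of the 9. PSMD5 fell by 0.55 ± 0.08 (SE; limma adjusted p = 0.000517) against the negative control, and its difference from non-transfected cells was -0.22 (limma adjusted p = 0.0856). That difference passed the threshold without negative control replicate 1 (limma adjusted p = 0.0236). PSMD10, also a chaperone of the base, had log2 values of 9.33, 9.11 and 9.69 in miR-520f cells, 8.65, 8.64 and 8.95 in negative control cells and 8.68, 9.00 and 9.34 in non-transfected cells. Its miR-520f arrays lay above the negative control and overlapped non-transfected cells. PSMD10 rose by 0.63 ± 0.18 (SE; limma adjusted p = 0.0206) against the negative control, and without replicate 1 of that group the call was lost (0.58; limma adjusted p = 0.0583), as it was without miR-520f replicate 3 (0.47) or negative control replicate 2 (0.57). Its difference from non-transfected cells was 0.37 (limma adjusted p = 0.174), and 0.53 without replicate 3 of that group (limma adjusted p = 0.0479). PSMG1, which pairs with PSMG2 to build the alpha ring, fell by 0.35 (limma adjusted p = 0.0381) against the negative control, a call lost under 8 alternatives. Among these were leaving out miR-520f replicates 1 or 2, negative control replicate 3 or non-transfected replicate 2, with differences of -0.35 to -0.23. PSMG3 and PSMD9 were called in no comparison.

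**Figure D3:**
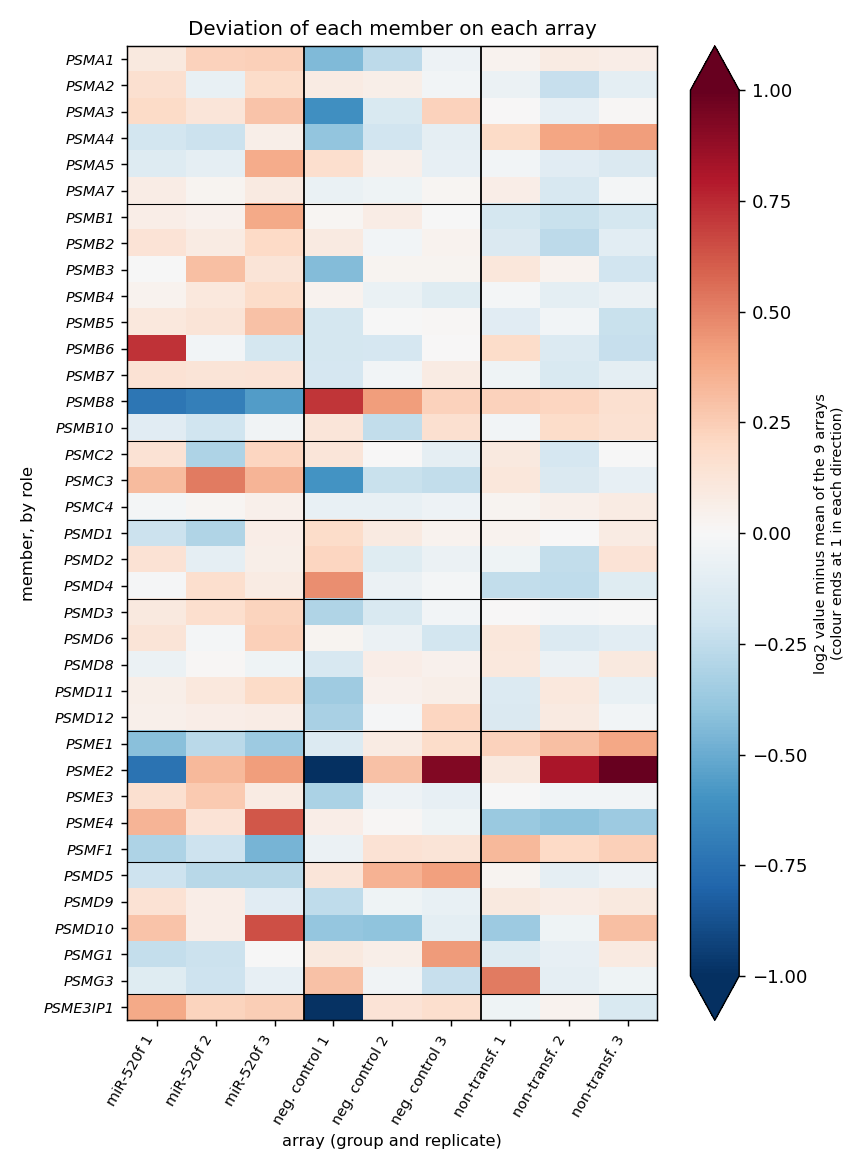
Deviation of each of the 37 members (vertical, by role) from its mean over the 9 arrays (horizontal, miR-520f left, then negative control, then non-transfected), in log2 units, red above and blue below the mean, with the colour ending at 1. PSMB8 is blue on the 3 miR-520f arrays, and the column of negative control replicate 1 holds the lowest value for 15 members.

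The negative control and non-transfected cells were compared to show how far the controls differ from each other. The 2 groups of arrays did not overlap on 16 members, beside 27.0% of all genes. Limma called 4 of the 37 members (10.8%), 2 higher and 2 lower in negative control cells, beside 15.3% of all genes (7.00% higher and 8.28% lower). PSME4 (0.39; limma adjusted p = 0.0310) and PSMD5 (0.33; limma adjusted p = 0.0219) were higher in negative control cells. PSMA4 (-0.56; limma adjusted p = 0.00488) and PSMA1 (-0.31; limma adjusted p = 0.0473) were lower in negative control cells. Each of these 4 was also called in at least 1 comparison with miR-520f, and for PSMA1, PSMA4 and PSMD5 that was 1 comparison and not the other, while PSME4 rose against both controls. The PSME4 and PSMA1 calls were lost without negative control replicate 1, with limma adjusted p of 0.0739 and 0.119. They were lost under 8 and 13 alternatives in all, among them leaving out any 1 non-transfected array. The PSMD5 call was lost without negative control replicates 2 or 3 and without non-transfected replicates 2 or 3 (limma adjusted p = 0.0613 to 0.0938). In all, 6 members were called against the negative control alone (PSMA1, PSMD3, PSMD5, PSMD10, PSME3 and PSMG1) and 5 against non-transfected cells alone (PSMA4, PSMB1, PSMB2, PSMB5 and PSMB7). Being called in 1 comparison and not in the other does not show that the effects differ.

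Genes around the proteasome were described from lists of the pathways. In class I antigen processing, 6 of 9 measured genes fell against the negative control and the same 6 against non-transfected cells, and 0 rose in either, beside 12.6% and 13.1% of all genes lower. Of the 9, an unadjusted p under 0.05 was reached by 7 and 6. The list's median log2 difference was -0.60 and -0.67, beside -0.03 in both comparisons for all genes. With dim probe sets filtered out, the medians of all remaining genes were 0.06 and 0.05. TAP1, which with TAP2 carries proteasome products into the endoplasmic reticulum, had log2 values of 5.28, 5.18 and 5.23 in miR-520f cells, 6.73, 6.59 and 6.42 in negative control cells and 6.57, 6.36 and 6.32 in non-transfected cells. All its miR-520f values lay more than 1 log2 unit below every control value. The log2 fold change of TAP1 was -1.35 (limma adjusted p = 2.07e-06) against the negative control and -1.19 (limma adjusted p = 5.50e-06) against non-transfected cells. ERAP1, an aminopeptidase that trims the peptides, gave -1.41 (limma adjusted p = 8.04e-07) and -1.30 (limma adjusted p = 1.42e-06) in the same order. TAP2 gave -1.02 and -0.67, and HLA-E, a nonclassical class I molecule, gave -0.63 and -0.68, with all 4 limma adjusted p between 5.47e-05 and 0.00246. TAPBP and ERAP2 fell against both controls as well. The ERAP2 probe set is dim, with miR-520f values of 2.98 to 3.11 and control values of 3.38 to 3.79. All of these lie below every array median and within the range of the markers of other cell types, so the size of its fall is uncertain. B2M, CALR and CANX, the light chain and the chaperones of class I molecules, were not called. In the RefSeq gene order PSMB8 lies between TAP2 and TAP1, so 3 neighbouring genes fell together, and PSMB9, on the far side of TAP1, was not tested here.

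Factors known to act on the transcription of proteasome genes went both ways. Of 10 measured, 4 rose and 2 fell against the negative control, and 4 rose and 2 fell against non-transfected cells. Beside these stand 15.4% and 12.6% of all genes higher and lower against the negative control, and 14.5% and 13.1% against non-transfected cells. The unmoderated fit called 2 higher and 0 lower against the negative control. NFE2L1 had log2 values of 9.64, 9.62 and 9.60 in miR-520f cells, 9.04, 9.38 and 9.39 in negative control cells and 9.39, 9.33 and 9.16 in non-transfected cells. The miR-520f arrays were the highest of the 9. NFE2L1 rose by 0.35 (limma adjusted p = 0.0239) against the negative control and 0.32 (limma adjusted p = 0.0338) against non-transfected cells, calls lost under 5 and 8 alternatives, in both comparisons among them leaving out any 1 miR-520f array. Leaving out negative control replicate 1 also ended the call against the negative control, and leaving out non-transfected replicates 2 or 3 the call against non-transfected cells. DDI2, the protease that cleaves NFE2L1 into its active form, rose by 0.40 (limma adjusted p = 0.00350) and 0.56 (limma adjusted p = 0.000390) in the same order. NFYB, a subunit of the factor that binds CCAAT boxes, rose by 1.16 and 0.89 (limma adjusted p = 0.000471 and 0.00290). IRF1, a transcription factor of interferon-inducible genes such as PSMB8, fell by 0.58 and 0.74 (limma adjusted p = 0.00779 and 0.00193). Its probe set is dim, with miR-520f values of 3.39 to 3.60 that lie below every array median and within the range of the markers of other cell types. The IRF1 values were 3.90 to 4.27 in negative control and 4.01 to 4.54 in non-transfected cells, close to the array medians or below them. The size of its fall is therefore uncertain. KEAP1, the adaptor that sends NFE2L2 to degradation, fell by 0.75 and 0.98 (limma adjusted p = 0.00763 and 0.00153). NFE2L2 itself was not analysed here.

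Further subunits and proteins that work on the proteasome were called mostly as higher in miR-520f cells. Of 17 measured, 9 rose and 1 fell against the negative control, beside 15.4% of all genes higher and 12.6% lower. The lower gene was UBQLN4, at -0.92 (limma adjusted p = 0.0220), and its difference from non-transfected cells was -0.65 (limma adjusted p = 0.0995). Against non-transfected cells 11 rose and 0 fell, beside 14.5% of all genes higher and 13.1% lower, and 13 reached an unadjusted p under 0.05. The 11 were 7 in the unmoderated fit and without non-transfected replicate 3. The list's median log2 difference was 0.32 and 0.36, beside 0.06 and 0.05 for all genes left after dim probe sets were filtered out. TXNL1, a thioredoxin-like protein bound to the regulatory particle, rose by 0.82 (limma adjusted p = 1.65e-05) and 0.73 (limma adjusted p = 3.83e-05) against the negative control and non-transfected cells. USP14, a deubiquitinase of the regulatory particle, rose by 0.77 (limma adjusted p = 0.000416) and 0.51 (limma adjusted p = 0.00584). ZFAND5, which binds ubiquitin and stimulates the proteasome, rose by 0.73 and 0.57, and PITHD1 by 0.65 and 0.93, with all 4 limma adjusted p under 0.05. ADRM1 and SEM1, stable subunits of the regulatory particle, and POMP, the chaperone of the core, were called in neither comparison.

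**Figure D4:**
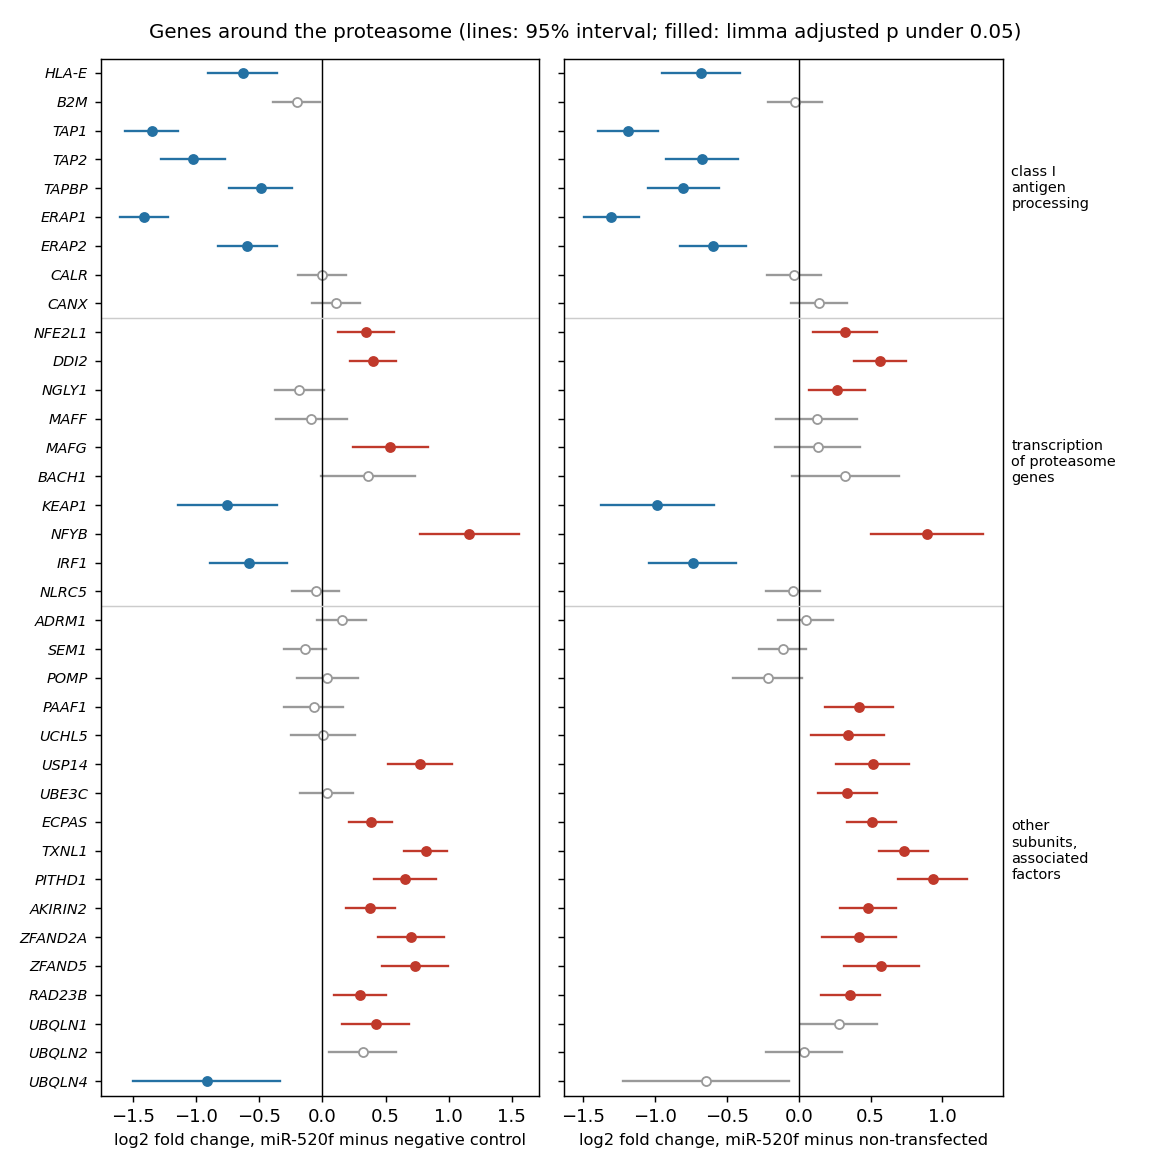
Log2 fold changes of genes for class I antigen processing, transcription of proteasome genes, and further subunits and associated factors (top to bottom), in miR-520f minus negative control cells (left) and miR-520f minus non-transfected cells (right). Points are limma estimates, lines are 95% intervals and filled points have an adjusted p under 0.05. In the top block 6 of 9 genes are filled left of 0 in both panels, and in the bottom block 9 of 17 are filled right of 0 in the left panel.

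In the ubiquitin list, 2 of 6 genes rose against the negative control, and 3 rose and 1 fell against non-transfected cells, beside 15.4% of all genes higher in the first comparison and 14.5% higher and 13.1% lower in the second. CDC34 and UBE2R2, related conjugating enzymes that work with cullin ligases, rose against both controls, CDC34 by 1.05 and 0.99 (limma adjusted p = 0.000553 and 0.000884) and UBE2R2 by 1.13 and 0.60 (limma adjusted p = 4.80e-06 and 0.000443). UBE2R2 was also lower in negative control than in non-transfected cells by 0.53 (limma adjusted p = 0.00250). Among VCP, the ATPase that extracts ubiquitinated proteins, and its cofactors, 4 of 14 rose and 1 fell in either comparison, beside 28.1% and 27.6% of all genes called. UBXN1, a cofactor, fell by 0.87 and 0.91 (limma adjusted p = 6.92e-05 and 5.27e-05). The cofactors PLAA and FAF1 rose, PLAA by 0.59 and 0.55 (limma adjusted p = 0.00102 and 0.00170) and FAF1 by 0.60 and 0.49 (limma adjusted p = 0.000866 and 0.00345).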

How the data were processed

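The authors deposited log2 values of 22011 probe sets in a single table, normalized by RMA in Partek 6.6 against build hg18, as far as names per the submitters' processing notes tell. Their settings are not given in the sources used here. RMA compresses differences of dim probe sets. Probe sets were named through the platform's annotation, where 14432 had 1 symbol, 2408 had several and 5171 were not named here. The brightest probe set represented each gene. Coordinates and promoter sequences are those of RefSeq on GRCh38.p14 and were not compared with hg18 coordinates.

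All 9 arrays entered a group-means model in limma 3.58.1 under R 4.3.3, leaving 6 residual degrees of freedom, and p-values were adjusted by Benjamini-Hochberg over 14232 genes. The procedure was tested on simulated data beforehand. The study made pairwise contrasts, so 1 alternative left out the moderation of variances. Others were further normalization, a filter on dim probe sets, all probe sets, fits of 2 groups, a fold minimum, the replicate number as a block and leaving out each array. Same-numbered arrays deviated together with correlations of -0.026 to 0.205, over 0.1 in 4 of 9 pairs, so the numbers were not taken to pair the samples.

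Members and lists were chosen with earlier results of these data known. Values on every array are given for members called against both controls, for those called between the controls and in 1 comparison with miR-520f, and for immunoproteasome catalytic subunits. Pathway lists gave at most 4 genes called against both controls, those with the largest smaller change, and NFE2L1. The members PSME2, PSMB2, PSMB5 and PSMD10 were chosen for full values after their values were seen, as were the other pathway genes named beyond that rule.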

Additional observations from a re-analysis of the deposited data

How the results depend on the processing

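No member reversed its direction among calls in 1992 recomputed results, of which 67 lost and 27 gained a call. PSMB8, PSME1 and PSMF1 kept both calls in every recomputed fit that tested them, but under the fold minimum of 1.5 only PSMB8 did. PSMB8 and PSMD4 were dropped by the filter on dim probe sets. The counts of called members were 11 against the negative control, 10 against non-transfected cells, 4 between the controls and 5 against both controls. Requiring a fold of at least 1.5 left 3, 3, 0 and 1 of them by limma; without that minimum 11 members had an unadjusted p under 0.05 between the controls. The unmoderated fit gave 2 between the controls and 3 against both. Between the controls, 2 were called with all probe sets and 2 in fits of 2 groups, and further quantile normalization gave 8 against both. Leaving out 1 array gave 8 to 11, 8 to 13, 1 to 5 and 4 to 6 in the same order. With the replicate number as a block, the counts were 11, 10, 5 and 6, though the labels do not say whether the numbers pair the samples. The median over members moved to 0.21 against non-transfected cells with arrays centred on the median, and to 0.03 between the controls without non-transfected replicate 1. The 4 beta ring calls against non-transfected cells were 2 in the unmoderated fit, without miR-520f replicate 3 and without non-transfected replicate 3. The causes were not tested. The number of arrays, 3 per group, limits the precision. The role and pathway counts under alternatives were added after seeing the data.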
